A study of Mus musculus with 17 samples.

Results

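Wild-type CD4 thymocytes (WT CD4) were mapped for 4 histone marks by chromatin immunoprecipitation and sequencing, with 1 library per mark. The marks were H3K4me3, H3K27ac, H3K9ac and H3K27me3, and these 4 libraries are part of a series of 17 samples. The members described here are the 84183 regions obtained by merging the 119589 islands (enriched intervals) of the 4 WT CD4 lists wherever islands shared at least 1 bp. Each region was assigned to 1 of the 15 possible combinations of marks. The 12 histone lists of the series hold 346699 islands in all.

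The groups used were WT CD4 (wild-type mature thymocytes labelled CD4), DKO CD8 (mature CD8 thymocytes of genotype Tcf1-/-Lef1-/-, both genes deleted by CD4-Cre, which acts in T cells) and WT CD8 (wild-type mature CD8 thymocytes). Each was a bulk sorted population, and the labels used here give neither the age nor the number of mice. Titles and source names of the WT CD4 samples say CD4, but their phenotype label lists CD8 and the same surface markers as the CD8 samples (TCRβ high, CD69 and CD24 negative). The title was followed, and the label could not be checked at marker genes because gene positions in the mm9 build were not used here. Tcf1 peaks came from wild-type splenic CD8 cells, another tissue and cell type than WT CD4. With 1 library per mark and group there is no replicate, no test between libraries is possible, and the 95% intervals given are exact Clopper-Pearson intervals that cover counting error only.

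H3K4me3 is placed by COMPASS-type methyltransferases and is typical of promoters that are active or poised. H3K27ac and H3K9ac are laid down by histone acetyltransferases at active promoters and enhancers, and H3K27ac without H3K4me3 is a common sign of enhancers. H3K27me3 is written by Polycomb repressive complexes and covers silent developmental genes; acetylation and trimethylation of the same lysine 27 exclude each other on one histone tail. H3K4me3 together with H3K27me3 is called bivalent and is best known from developmental promoters in stem cells. In bulk chromatin, marks on one nucleosome, on the 2 alleles, or in different cells of the population cannot be told apart.

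The 4 lists differed in extent. H3K4me3 had 28449 islands over 27.8 Mb with 850538 reads, H3K27ac 24476 over 64.2 Mb with 2505720 reads, H3K9ac 32651 over 45.6 Mb with 1058430 reads, and H3K27me3 34013 over 142 Mb with 4025243 reads. Reads outside islands are not known, so these sums are not library depths. A WT CD4 island held at least 10 reads for H3K4me3 and H3K9ac, 14 for H3K27ac and 15 for H3K27me3.

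Most regions carried 1 mark, and the 3 marks of active chromatin formed by far the most frequent combination of several marks. H3K27me3, the longest list, alone formed the largest class, with 24278 regions (28.8%, 95% interval 28.5 to 29.2), but 2002 with all marks trimmed to equal covered length, where H3K4me3 alone led with 17453. In the lists as deposited, H3K27me3 alone was followed by H3K9ac alone with 15565 (18.5%), H3K4me3 alone with 12876 (15.3%) and H3K27ac alone with 10327 (12.3%). Regions of 1 mark thus numbered 63046 (74.9%, 74.6 to 75.2). They covered 57.3% of the merged length, which was 235 Mb. H3K4me3 with H3K27ac and H3K9ac, without H3K27me3, numbered 7129 (8.47%, 8.28 to 8.66). All 4 marks met in 1209 regions (1.44%, 1.36 to 1.52).

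**Figure D1:**
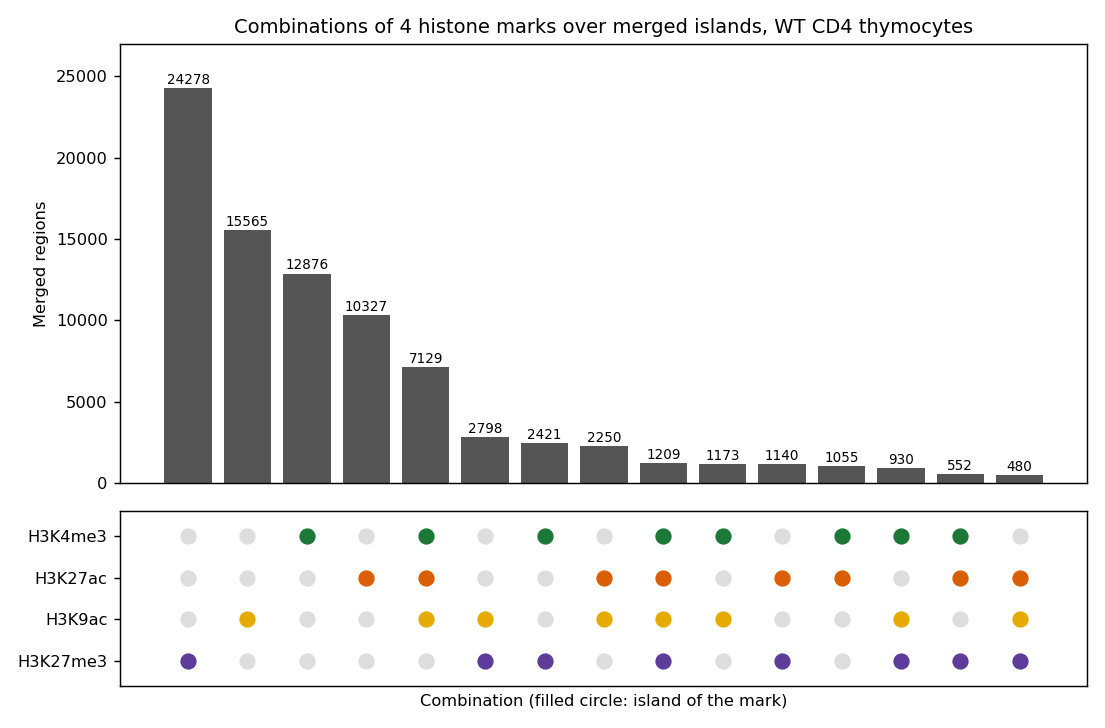
Number of merged WT CD4 regions (y axis) in each of the 15 combinations, ordered by size; filled circles under each bar show which marks had an island. The 4 classes of 1 mark come first, then the 7129 regions of H3K4me3, H3K27ac and H3K9ac, then 10 classes of 480 to 2798 regions.

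Combinations of 2 marks were uneven. H3K9ac with H3K27me3 had 2798 regions, H3K4me3 with H3K27me3 had 2421, and H3K27ac with H3K9ac had 2250. H3K4me3 with H3K9ac (1173), H3K27ac with H3K27me3 (1140) and H3K4me3 with H3K27ac (1055) were similar in number in these lists. This order depended on the lists: with each mark trimmed to the covered length of its shortest list, H3K4me3 with H3K27ac led these pairs with 2894 regions and H3K9ac with H3K27me3 had 308, and with all marks trimmed to equal length H3K4me3 with H3K9ac led with 2271. The 3 combinations of H3K27me3 with 2 other marks were the rarest in these lists, with 930 for H3K4me3 and H3K9ac, 552 for H3K4me3 and H3K27ac, and 480 for both acetyl marks. In these lists, regions of H3K4me3 with 1 acetyl mark (1055 with H3K27ac and 1173 with H3K9ac) were fewer than the 7129 with both.

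Regions with H3K27me3 were wide. The median width was 6.40 kb for all 4 marks (quartiles 3.80 and 12 kb), 4.0 kb for H3K4me3 with H3K27me3 (2.60 and 7.20 kb) and 2.60 kb for H3K27me3 alone. Regions of the 3 active marks had a median width of 2.2 kb (quartiles 1.60 and 3.20 kb), and H3K4me3 alone 0.80 kb (0.60 and 1.0 kb). The 1209 regions of all 4 marks thus made up 5.45% of the merged length but 1.44% of regions.

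Counted by sequence, the active marks covered one another far more than they covered the genome. H3K27ac lay over 39.3% of the H3K4me3 sequence and H3K9ac over 36.9%, while they covered 2.49% and 1.77% of the 2579 Mb between the outermost islands of each chromosome. H3K27me3 covered 5.50% of that span, 18.5% of the H3K4me3 sequence, 15.6% of the H3K9ac sequence and 9.90% of the H3K27ac sequence. The lowest of these 3 shares was thus that of H3K27ac, still above the 5.50% of the span, and the reason for this order was not tested. By base pairs, 0.312% of the covered sequence lay under all 4 marks and 3.29% under the 3 active marks alone.

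The 3 active marks were strongest where they met. Over regions of H3K4me3, H3K27ac and H3K9ac, the median density was 45 H3K4me3 reads per kb of its islands (quartiles 33.6 and 58.8), against 20 (17.1 and 26.7) in regions of H3K4me3 alone. H3K27ac had a median of 57.7 reads per kb (41.0 and 81.4) there, against 21.7 (17.0 and 29.2) where it was alone, and H3K9ac 33.1 (25 and 45), against 17.5 (14.2 and 23.3). For H3K4me3, H3K27ac and H3K9ac alike, the lower quartile in the shared class lay above the upper quartile of the class with that mark alone. The 7129 regions held 46.5% of all H3K4me3 island reads, 47.1% of H3K27ac and 38.0% of H3K9ac reads.

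Regions with 2 active marks had lower levels. H3K4me3 with H3K27ac but no H3K9ac had 28.3 H3K4me3 and 28.1 H3K27ac reads per kb, and H3K4me3 with H3K9ac but no H3K27ac had 20 H3K4me3 and 17.1 H3K9ac reads per kb (medians). H3K27ac with H3K9ac and no H3K4me3 had 33.0 H3K27ac and 18.8 H3K9ac reads per kb. In this last class H3K27ac was above its level alone, and H3K9ac was close to its level alone (18.8 and 17.5).

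**Figure D2:**
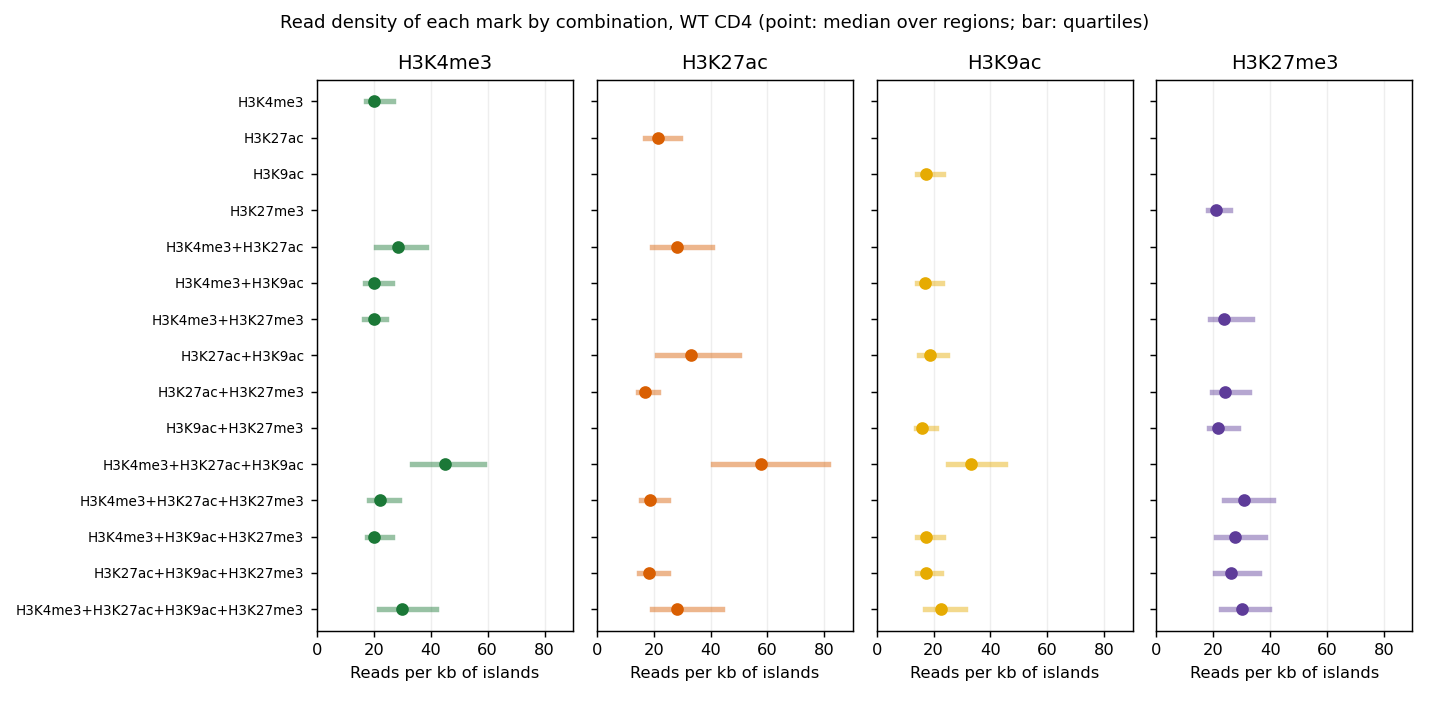
Reads per kb of islands for each of the 4 marks (panels, x axis) in WT CD4 by combination (y axis); points are medians over regions and bars the quartiles. Each active mark has its highest median in H3K4me3+H3K27ac+H3K9ac, and H3K27me3 has its highest medians, 30.7 and 30.2, in combinations that include H3K4me3 and H3K27ac.

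Levels of the active marks were lower with H3K27me3 in some classes and not in others. In regions of all 4 marks the medians were 30 reads per kb for H3K4me3, 28.3 for H3K27ac and 22.5 for H3K9ac, against 45, 57.7 and 33.1 in regions of the 3 active marks without H3K27me3. Their quartiles overlapped (H3K27ac 19.4 and 44.0, against 41.0 and 81.4). With H3K27me3 as the only partner, H3K27ac had a median of 16.9 reads per kb (quartiles 14.5 and 21.7), against 21.7 where it was alone. H3K4me3 with H3K27me3 had the same median as H3K4me3 alone, 20 reads per kb. H3K4me3 with H3K9ac had medians of 20 H3K4me3 and 17.5 H3K9ac reads per kb with H3K27me3, and 20 and 17.1 without it.

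The Polycomb mark itself had higher median densities where it overlapped other marks, but barely so with H3K9ac as its only partner. In that class, H3K27me3 had a median of 21.7 reads per kb (quartiles 18.4 and 28.5). H3K27me3 had a median of 30.2 reads per kb (22.8 and 39.6) in regions of all 4 marks and 23.7 (18.9 and 33.5) with H3K4me3 alone as partner, against 21.0 (18.0 and 26.0) where it had no partner. Across the 1209 regions of all 4 marks, the density of H3K27me3 was weakly related to that of the others (Spearman's rho -0.17 with H3K4me3, -0.21 with H3K27ac and -0.12 with H3K9ac), while the active marks went together (0.58 for H3K4me3 and H3K27ac, 0.55 for H3K27ac and H3K9ac). The sign for H3K27me3 was not the same in all classes. It was positive with H3K4me3 in bivalent regions (0.11) and with H3K9ac in H3K9ac with H3K27me3 (0.20). In regions of H3K4me3, H3K27ac and H3K27me3 it was negative with both partners (-0.08 and -0.13). These rho values are descriptions across regions, which are not replicates and share region width and the mapping of the sequence.

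Overlap depended steeply on the strength of an island, taken as its reads per kb and split into 10 classes of equal size. Of the weakest class of H3K4me3 islands 7.07% overlapped H3K27ac, and of the strongest class 90.2%. The same ends were 13.8% and 96.8% for H3K27ac islands with H3K9ac, and 8.82% and 70.4% for H3K9ac islands with H3K4me3. Overlap with H3K27me3 ran the other way, with 25.6% of the weakest and 6.68% of the strongest H3K4me3 islands, 31.8% and 2.98% of H3K27ac islands, and 23.3% and 7.53% of H3K9ac islands. The weakest islands were also wider than the strongest, with medians of 1.4 and 0.8 kb for H3K4me3, 2.6 and 2.0 kb for H3K27ac and 2.0 and 0.8 kb for H3K9ac. Wider H3K4me3 islands met H3K27me3 more often (16.7% up to 600 bp and 22.9% over 2 to 4 kb), as did wider H3K9ac islands (13.9% and 21.8%), and the part of width in these shares was not tested. The strongest H3K27ac islands thus nearly all met H3K9ac, while 71.6% of the strongest H3K9ac islands met H3K27ac. Among all islands, 44.5% of those of H3K27ac and 35.2% of those of H3K9ac overlapped the other acetyl mark.

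**Figure D3:**
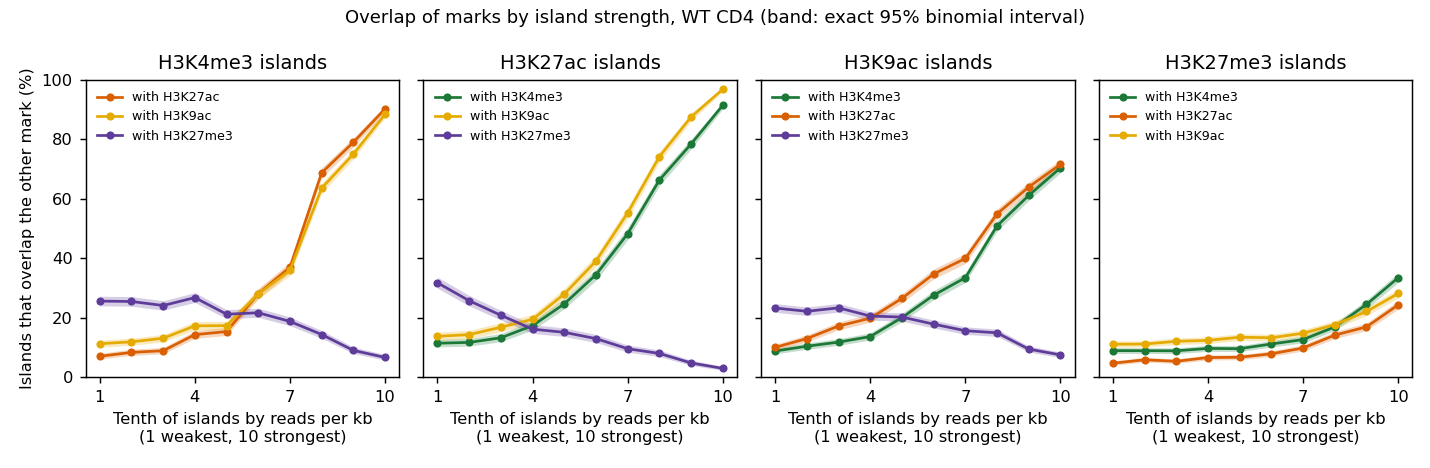
Share of WT CD4 islands of each mark (panels) that overlap an island of another mark (y axis, lines by other mark), by class of island strength in reads per kb, weakest to strongest (x axis); bands are exact 95% binomial intervals. Active marks overlap more with strength, H3K27me3 overlaps fewer of the strong islands of the other marks, and strong H3K27me3 islands overlap each active mark more.

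For H3K27me3 islands the direction was that of the active marks. H3K4me3 was called in 8.97% of the weakest class and 33.5% of the strongest. The strongest class was also wider (median 5.0 kb, against 3.2 kb in the weakest). In a comparison within widths, chosen after these values were seen, islands of over 2 to 4 kb had H3K4me3 in 12.8% (95% interval 12 to 13.7) above their median density and in 8.08% (7.42 to 8.78) below it, at equal median widths of 2.8 kb. Above 4 kb these shares were 36.3% and 15.8%, and there the denser islands were also wider (medians 8.4 and 5.6 kb).

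Merging by chains of overlap does not require all marks at one place. A position under all marks existed in 7047 of 7129 regions of the 3 active marks (98.8%, 98.6 to 99.1), with a median of 1.0 kb in common. In regions of all 4 marks it existed in 739 of 1209 (61.1%, 58.3 to 63.9), with a median of 0.60 kb. In regions of the 3 active marks with 1 island of each (6562), the H3K4me3 island lay wholly inside the H3K27ac island in 87.6% and inside the H3K9ac island in 60.8%. Median widths there were 1.0 kb for H3K4me3, 1.4 kb for H3K9ac and 2.0 kb for H3K27ac. H3K9ac lay inside H3K27ac in 74.5%. By median width H3K4me3 was thus the narrowest and H3K27ac the widest, but the order of H3K4me3 and H3K9ac varied. H3K4me3 was narrower than H3K9ac in 58.8%, and H3K9ac lay inside H3K4me3 in 30.1%. The narrowest gap between islands was 400 bp for H3K4me3 and 600 bp for H3K27ac and H3K9ac, and the part of island calling in these widths was not tested.

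Bivalent regions of H3K4me3 and H3K27me3 had another layout. Of their 2584 H3K4me3 islands, 76.2% lay wholly inside an H3K27me3 island and 22.4% across its edge. H3K4me3 took up 15.5% of the H3K27me3 sequence of these regions, while 87.7% of the H3K4me3 sequence was under H3K27me3. At the centre of the H3K4me3 island with the most reads, 91.0% of these regions were covered by H3K27me3, and 34.3% still were at 5 kb on either side. In regions of all 4 marks, H3K27me3 covered 66.9% of the centres of such H3K4me3 islands, H3K27ac 82.2% and H3K9ac 74.6%. The share under H3K27me3 was 64.3% at 1 kb and 56.1% at 2 kb. Neighbouring H3K27me3 islands lay at least 800 bp apart, so a narrower loss of H3K27me3 under an H3K4me3 island would not be seen.

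**Figure D4:**
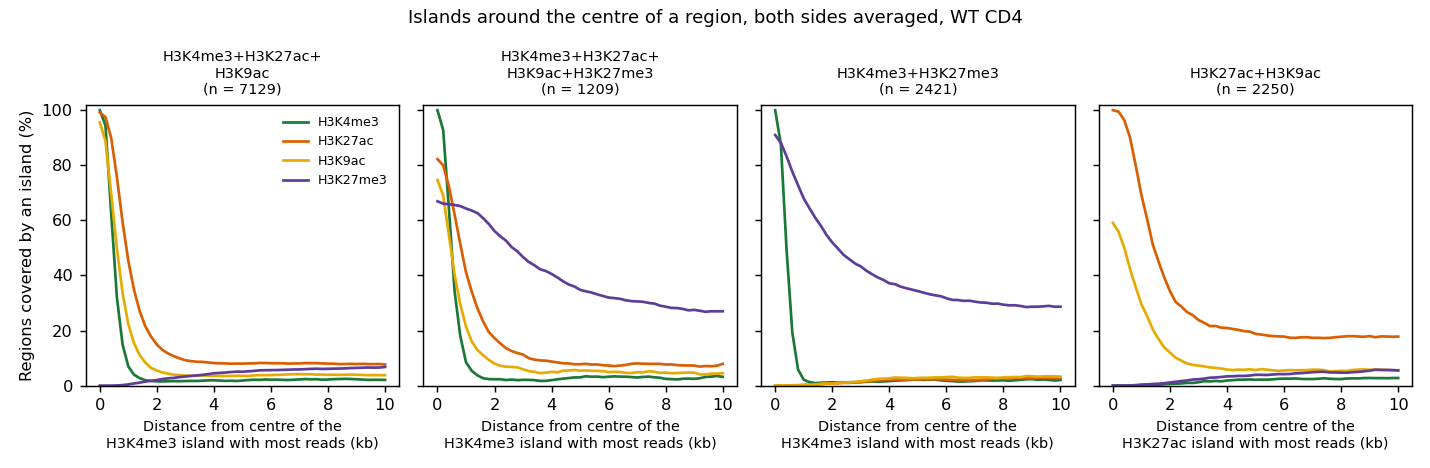
Share of regions covered by an island of each mark (y axis) at a distance from the centre of the region's H3K4me3 or H3K27ac island with the most reads (x axis, kb, both sides averaged), in 4 combinations of WT CD4. H3K4me3 is narrowest and H3K27ac widest at the active class, and H3K27me3 extends beyond 5 kb in both classes that hold it.

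Classes also differed in their neighbourhood. Regions of H3K27ac alone lay a median of 19.6 kb from the nearest H3K4me3 island (quartiles 7.80 and 43.8 kb) and 52.0 kb from the nearest region of the 3 active marks. Regions of H3K27ac with H3K9ac lay 38.2 kb from such a region. H3K4me3 alone lay 156 kb and H3K9ac alone 147 kb away from one (medians), and 3.67% and 3.75% were within 5 kb. Around H3K27ac regions, H3K27ac itself recurred: at 10 kb from the centre of the H3K27ac island with the most reads, an H3K27ac island covered 17.8% of regions of H3K27ac with H3K9ac and 13.6% of regions of H3K27ac alone.

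Individual regions show the range. Regions that overlapped an island with over 20 times its list's median reads per kb, in any of the 12 histone libraries, were first set aside (29 regions). Of the 3 active marks, the region with the most reads was chr11:52070201-52100200 (mm9, 30 kb), with 355 H3K4me3, 3194 H3K27ac and 1025 H3K9ac reads and 5 Tcf1 peaks. The second, chr11:87555801-87572400 (16.6 kb), had 123, 2407 and 439 reads of these marks and 5 Tcf1 peaks. The third and widest of the class was chr9:32501001-32531200 (30.2 kb), with 5 H3K4me3 islands of 137 reads in all, 2282 H3K27ac and 499 H3K9ac reads and 3 Tcf1 peaks. Each of the 3 had islands of the 3 active marks in DKO CD8 and WT CD8 too, and the first also had H3K27me3 in DKO CD8.

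Among regions of H3K27ac with H3K9ac, chr6:47687001-47728600 (41.6 kb) had 4009 H3K27ac and 2828 H3K9ac reads with 7 Tcf1 peaks. It was followed by chr6:47600401-47637000 (36.6 kb) with 3546 and 2548 reads and 6 peaks. The widest, chr14:54798001-54859000 (61.0 kb), had 4794 H3K27ac and 975 H3K9ac reads and 3 peaks. H3K4me3 was not called in WT CD4 over those 61.0 kb and was called there in both CD8 groups.

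Ranking by summed reads or by width favours H3K27me3, the list with the most reads and the widest islands, so the regions of H3K27me3 and a second mark named here are extremes and read counts are not compared between marks. Over all 2421 bivalent regions the medians were 86 H3K27me3 and 17 H3K4me3 reads. The bivalent region with the most reads, chr5:143866401-143930200 (63.8 kb), had 3616 H3K27me3 reads in 1 island and 32 H3K4me3 reads in 2 islands. Next came chr11:98146801-98204400 with 3046 and 45 reads and chr15:102746201-102789000 with 2349 and 27. For H3K27me3 with H3K9ac, chr11:102794001-102842600 had 2182 and 44 reads, chr7:147230201-147272800 had 2047 and 75, and chr9:121123001-121149400 had 1428 and 584. H3K27ac with H3K27me3 was led by chr7:52417601-52456400, with 44 H3K27ac and 1847 H3K27me3 reads. In these regions the second mark covered 1.4 to 3.6 kb, apart from the 19.8 kb of H3K9ac in chr9:121123001-121149400.

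Regions of 3 and 4 marks were named by the same ranking. The widest of all regions was chr11:95999201-96187800 (188.6 kb), in which 1 H3K27me3 island of 9665 reads enclosed 4 H3K4me3 islands (81 reads), 65 H3K27ac reads and 36 H3K9ac reads. In chr3:96121401-96195400 (74.0 kb), 4272 H3K27me3 reads stood beside 57 H3K4me3 and 187 H3K27ac reads. In chr7:86617401-86707600 (90.2 kb), 4164 H3K27me3 reads stood beside 29 H3K4me3 and 19 H3K9ac reads, and in chr8:114220201-114277000 (56.8 kb) 2243 stood beside 85 H3K27ac and 93 H3K9ac reads. With H3K4me3, H3K9ac and H3K27me3, the region of most reads was chr10:57683401-57704000 (20.6 kb), with 1225, 1261 and 2351 reads of these marks. The region of all 4 marks with the most reads had high counts of each: chr11:3017601-3100800 (83.2 kb) had 15682 H3K4me3, 14893 H3K27ac, 16111 H3K9ac and 26890 H3K27me3 reads. Its densities were 203, 180, 200 and 326 reads per kb, against class medians of 30, 28.3, 22.5 and 30.2. It did not reach the limit for regions set aside. Inputs were not analysed, so whether mapping of the sequence raised all 4 counts there was not tested. The second by reads, named after its values were seen, was chr8:126058201-126188400 (130 kb), with 1695, 2747, 1924 and 22505 reads of these marks.

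Of the 29 regions set aside, 13 had H3K4me3, H3K9ac and H3K27me3 without H3K27ac, a combination that makes up 1.1% of all regions. The highest was chr17:39979201-39986000 (6.80 kb), with 5269 H3K4me3, 4876 H3K9ac and 15799 H3K27me3 reads. The 29 regions held 2.64% of H3K4me3, 2.45% of H3K9ac, 0.992% of H3K27me3 and 0.0239% of H3K27ac island reads. An H3K27ac island was called at 14 of them in DKO CD8 and at 19 in WT CD8, and at chr17:39979201-39986000 in both.

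Readouts that the combinations did not use came from the other libraries. In DKO CD8, an H3K4me3 island overlapped 81.2% (80.3 to 82.1) of the WT CD4 regions of the 3 active marks, and in WT CD8 81.9% (81.0 to 82.8) of them. Over all WT CD4 regions these shares were 12.1% and 16.0%. For regions of H3K4me3 alone they were 2.64% in DKO CD8 and 4.46% in WT CD8, below those of all regions. H3K9ac alone was found again as H3K9ac at 0.726% in DKO CD8 and 1.99% in WT CD8 (all regions 6.10% and 7.29%). Regions of H3K4me3 alone had no island of any mark at 90.5% in DKO CD8 and 87.5% in WT CD8, against 58.7% and 62.5% of all regions. Both classes had low density in WT CD4 (medians 20 H3K4me3 and 17.5 H3K9ac reads per kb). The CD8 H3K9ac lists were short, with 6516 islands in DKO CD8 and 9860 in WT CD8.

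H3K27ac was called at 97.4% (DKO CD8) and 77.9% (WT CD8) of the regions of the 3 active marks, and at 51.0% and 27% of regions of H3K27ac alone (all regions 23.7% and 20.8%). Strength went with this. Between 40 and 60 H3K27ac reads per kb, regions of the 3 active marks had H3K27ac at 99.1% in DKO CD8 and 75.4% in WT CD8, and regions of H3K27ac alone at 82.2% and 58.0%. H3K27me3 was called at 82.1% (DKO CD8) and 58.9% (WT CD8) of regions of all 4 marks, at 57.3% and 45.8% of bivalent regions, and at 36.4% and 24.8% of regions of H3K27me3 alone (all regions 19.9% and 15.9%). In bivalent regions H3K4me3 was called less often than H3K27me3, at 8.80% (DKO CD8) and 16.5% (WT CD8), counting an island anywhere in the region. The first share was below the 12.1% of all regions in DKO CD8, and the second was close to the 16.0% in WT CD8. Both marks of bivalent regions were called at 6.32% and 10.7%. All 4 marks were called at 14.9% (DKO CD8) and 9.51% (WT CD8) of the 1209 WT CD4 regions of all 4. The same combination was found at 46.2% (DKO CD8) and 38.8% (WT CD8) of regions of the 3 active marks, against 20.4% and 12.6% of all regions. With further marks allowed, these shares were 50.5% and 39.4%, against 23.2% and 16.3%. Wider regions can be overlapped more easily, and the part of width in these shares was not tested.

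Tcf1 peaks of splenic CD8 cells followed H3K27ac. A peak lay in 39.8% (38.6 to 40.9) of regions of the 3 active marks, 29.7% (27.9 to 31.7) of H3K27ac with H3K9ac, 23.0% of all 4 marks, 18.8% of H3K4me3 with H3K27ac and 13.7% of H3K27ac alone, against 6.90% of all regions. The other 3 classes with H3K27ac, each with H3K27me3, had 9.38% to 10.9%. Without H3K27ac the highest share was 1.61% (H3K4me3, H3K9ac and H3K27me3), and bivalent regions had 0.785%. Of the 7807 peaks, 3242 lay in regions of the 3 active marks and 1553 in H3K27ac alone. Per Mb of region this was 161 and 61.8 peaks, and 1.49 in bivalent regions. H3K27ac with H3K9ac had 91.3 peaks per Mb, H3K4me3 with H3K27ac 90.2 and all 4 marks 25.2. By this measure all 4 marks thus ranked below H3K27ac alone. Median widths were 6400 bp for all 4 marks, 1800 bp for H3K4me3 with H3K27ac and 2200 bp for H3K27ac alone. The part of width in the shares was not tested. The 1186 peaks (15.2%) outside any WT CD4 region had a median score of 65.8 in the authors' list, and those in the 3 active marks 75.9. Scores were not highest in that class: medians were 84.5 in H3K27ac alone, 88.2 in H3K27ac with H3K9ac and 104 in H3K27ac with H3K27me3. In all 4 marks the median was 69.3.

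Within the classes compared, regions with a peak had more H3K27ac, and also more H3K4me3 and H3K9ac where these were called. In regions of the 3 active marks the median was 66.6 H3K27ac reads per kb with a Tcf1 peak and 52.5 without one, and in H3K27ac with H3K9ac it was 48.1 and 27.5. In regions of the 3 active marks, H3K4me3 had 46.7 with a peak and 43.8 without one, and H3K9ac 35.7 and 31.9. In regions of all 4 marks, medians with and without a peak were 40 and 25.8 for H3K27ac and 34 and 28.3 for H3K4me3. They were 27.8 and 21.4 for H3K9ac there. H3K27me3 in regions of all 4 marks had medians of 29.4 reads per kb with a peak and 30.3 without one. Widths were larger with a peak in H3K27ac with H3K9ac (medians 4.8 and 2.8 kb).

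The same shares were taken at like H3K27ac levels, a comparison chosen after the shares above were seen. Below 20 H3K27ac reads per kb a Tcf1 peak lay in 11.5% (6.27 to 18.9) of regions of the 3 active marks and 5.6% (4.92 to 6.34) of regions of H3K27ac alone. From 20 to 30 reads per kb the shares were 23.0% (19.6 to 26.7) and 14.4% (13.2 to 15.5), and from 30 to 40 they were 28.6% (25.7 to 31.6) and 22.8% (20.7 to 25). From 40 to 60 reads per kb they were 36.0% (33.9 to 38.1) and 31.8% (28.5 to 35.1), and from 60 to 80 they were 43.6% (41.1 to 46.2) and 31.2% (23.7 to 39.5). Above 80 they were 53.6% (51.3 to 55.8) and 41.0% (25.6 to 57.9), the second over 39 regions. The share was thus higher in the 3 active marks in each of the 6 ranges. The intervals overlapped in 3 of them (below 20, 40 to 60 and above 80). Widths were not alike in all ranges. Median widths of the 3 active marks and of H3K27ac alone were 3200 and 2200 bp below 20 reads per kb. They were 2600 and 1800 bp from 20 to 30, 2400 and 2000 bp from 30 to 40, and 2200 and 1600 bp above 80. From 40 to 60 and from 60 to 80 both were 2200 bp. The part of width in these shares was not tested. Regions of H3K27ac with H3K9ac but no H3K4me3 had 6.74% (4.65 to 9.38) below 20 reads per kb and 17% (13.8 to 20.6) from 20 to 30. Both shares were below those of the 3 active marks, with overlapping intervals. From 30 to 40 the share was 30.5% (25.9 to 35.3), close to that of the 3 active marks. It was higher than theirs from 40 to 60 (42.1%, 37.8 to 46.5), from 60 to 80 (56.8%, 50.3 to 63.1) and above 80 (62.6%, 53.4 to 71.2). Median widths of H3K27ac with H3K9ac regions were 3000 bp below 20 reads per kb and 2800 bp from 20 to 30. They were 3800 bp from 30 to 40 and from 40 to 60, 3600 bp from 60 to 80 and 3400 bp above 80. From 30 reads per kb upward these regions were thus wider than those of the 3 active marks, and the part of width was not tested.

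**Figure D5:**
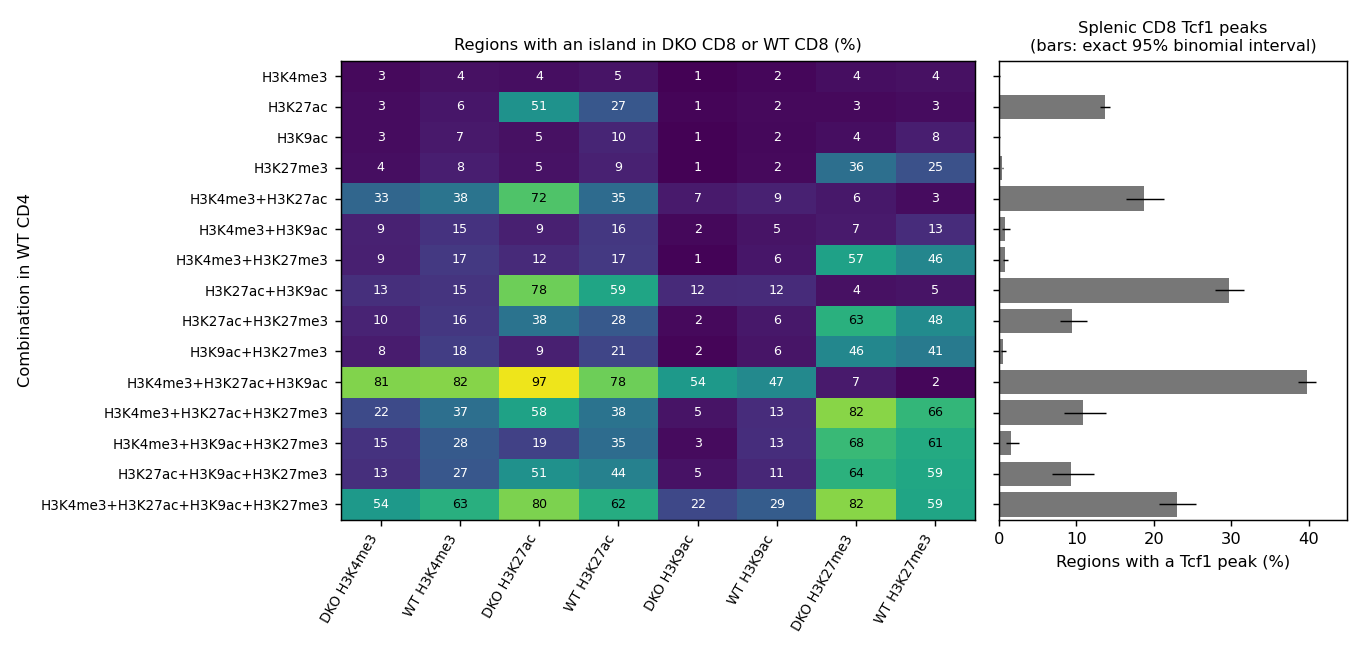
Left, share (%) of WT CD4 regions of each combination (rows) that overlap an island of each mark in DKO CD8 or WT CD8 (columns, DKO and WT); right, share with a splenic CD8 Tcf1 peak, with exact 95% binomial intervals. Regions of H3K4me3+H3K27ac+H3K9ac are those most often called again for H3K4me3, H3K27ac and H3K9ac, and the share with a Tcf1 peak is at least 9.38% in each class with H3K27ac and at most 1.61% in each class without it.

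Built by the same rule, the combinations of the CD8 groups had other proportions. The 3 active marks made up 8.47% of regions in WT CD4, 5.56% in DKO CD8 and 3.10% in WT CD8. With each mark trimmed to the covered length of its shortest list, these became 9.49%, 5.56% and 3.47%. All 4 marks made up 1.44% in WT CD4, 0.798% in DKO CD8 and 0.794% in WT CD8, and after trimming 0.754%, 0.798% and 0.692%, so this order did not hold. H3K27ac with H3K27me3 made up 1.35% in WT CD4, 3.70% in DKO CD8 and 9.77% in WT CD8 (1.76%, 3.70% and 11.4% after trimming). H3K9ac alone made up 18.5%, 1.89% and 3.63%, and 5.36%, 1.89% and 4.66% after trimming. With 1 library per mark, a group and its library cannot be told apart.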

How the data were processed

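Single-end reads (some libraries sequenced again with longer reads, per the labels) were processed with tools that the submitters' processing notes list without a role: SICER 1.1, MACS 1.4.2, Bowtie2 2.2.5 and FastQC, with build mm9. Each deposited island list holds a count of reads per island, whole and not normalized, with edges at multiples of 200 bp. Between neighbouring WT CD4 islands the narrowest gap was 800 bp for H3K27me3, against 400 bp for H3K4me3, so lists were not called alike; read counts are given mark by mark, not as relative levels, and summed over marks only to rank regions. For Tcf1 peaks the score is the authors' own, as deposited. No pooling is stated.

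Islands of the 4 marks that shared 1 bp were merged. Density is a mark's reads divided by the length of its own islands. Coordinates are 1-based. Regions named were, per combination, the one with the most reads and the widest, with 3 for the 4 most frequent combinations of several marks. Members, lists and comparisons were chosen with earlier results of these data known. Genes and sequences were not used here: the reference tables are of another build. Inputs were not analysed here. With no replicates, planned values are shares, without tests. Python 3.11.15, pandas 2.3.3, numpy 2.4.6, SciPy 1.17.1 and matplotlib 3.10.9 were used. Merging was tested on 3000 simulated loci and equalled bedtools 2.31.1. Alternatives (6 planned, 2 added after the data were seen) are given with the limits.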

Additional observations from a re-analysis of the deposited data

How the results depend on the processing

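No paired analysis was possible because each mark had 1 library per group. The 6 main shares were recomputed: all 4 marks (1.44% of regions), 1 mark (74.9%), H3K4me3 with H3K27me3 (6.07%), H3K4me3 regions with H3K27ac (36.4%), H3K27ac regions without H3K4me3 (58.8%), and regions of all 4 marks with 1 position under all (61.1%). In that order, joining islands up to 1 kb apart gave 2.27%, 70.9%, 7.73%, 38.2%, 54.5% and 43.8%. Islands above their list's median reads gave 0.896%, 70.4%, 4.76%, 51.4%, 46.0% and 66.4%, and marks trimmed to equal covered length 0.262%, 74.4%, 2.65%, 25.1%, 28.8% and 68.6%. The 2 settings chosen after seeing the data were each mark trimmed to its shortest of 3 lists (0.754%, 75.7%, 5.79%, 40.6%, 58.2% and 65.2%) and islands above their list's median reads per kb (0.895%, 73.1%, 3.82%, 52.9%, 40.6% and 65.7%). Joining at 50% of the shorter island gave 1.12%, 76.4%, 5.46%, 59.5% and 71.6% for all but the share of H3K4me3 regions with H3K27ac, which stayed within its interval. Without places of high signal, or on autosomes only, all 6 shares stayed within their intervals. H3K4me3 with H3K27ac and H3K9ac was the most frequent combination of several marks under each setting, with 5249 to 7306 regions, while H3K27me3 alone was the most frequent class under all but equal covered length, where H3K4me3 alone was (17453 regions). Of the 15 combinations, 10 to 13 changed in number by over 1.5 times under the 4 settings that trimmed lists or kept islands above a median, and the order of the pairs changed. These settings also cut the total from 84183 to between 38487 and 55302 regions. A fall in number is therefore partly set by the fewer islands and is not by itself a change of share. All 6 shares above depend on which islands enter, and the cause was not tested. Island lists hold no reads outside islands, so weak enrichment below each list's minimum is not detectable here.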

Other observations

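Regions were unevenly spread over chromosomes. Per Mb between the outermost islands, all WT CD4 regions numbered 48.9 on chromosome 11, the highest autosome, and 24.1 on chromosome 3, the lowest. Regions of the 3 active marks numbered 5.14 per Mb on chromosome 11 and 2.05 on chromosome 1. Single-mark H3K4me3 and H3K9ac regions were more even over autosomes (coefficient of variation 13.4% and 13.0%) than regions of the 3 active marks (27.7%) or bivalent regions (29.5%).

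Chromosome X held 1.84% of WT CD4 regions and 6.34% of the sequence between the outermost islands. Its share was 4.64% for H3K4me3 with H3K27ac (49 regions), 2.12% for the 3 active marks (151), 0.991% for H3K4me3 with H3K27me3 (24) and 0.827% for all 4 marks (10). In DKO CD8 chromosome X held 3.72% of merged regions and in WT CD8 4.96%. Chromosome Y held 13 WT CD4 regions.

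The regions of a single mark with the most reads in WT CD4 each had another mark in at least 1 CD8 group. H3K27ac alone was led by chrX:166421201-166447000 (25.8 kb, 2807 reads), which had no island in DKO CD8 and H3K4me3 and H3K27ac in WT CD8. H3K9ac alone was led by chr7:67002201-67047600 (45.4 kb, 3026 reads), with H3K4me3 in DKO CD8 and all 4 marks in WT CD8. H3K27me3 alone was led by chrX:92119401-92175400 (56.0 kb, 2727 reads), with all 4 marks in DKO CD8 and H3K4me3, H3K27ac and H3K27me3 in WT CD8. H3K4me3 alone was led by chr13:120276401-120284200 (7.80 kb, 369 reads), with H3K4me3 in DKO CD8 and H3K27ac in WT CD8.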
